A study of Homo sapiens with 12 samples.

Results

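*PSAT1* and 8 further genes of serine synthesis and one-carbon metabolism were described in 12 RNA-seq libraries of U251 cells, an established human glioblastoma line. The 9 genes were taken by name from the 45416 genes of the deposited table, and all 9 passed the filter on low reads, as did 17989 genes in all. *PSAT1* was chosen because it was higher with both siRNAs against *PD-L1*, so its own changes are a description with no test. The question put to the data was whether the remaining 8 genes followed it. The cells were transfected with a control siRNA (siNC) or with siPDL1-1 or siPDL1-2, each directed at *PD-L1* (*CD274*), and were left unstimulated or given IFNγ at 100 U/ml for 24 h, 48 h after transfection. Each of the 6 conditions had 2 libraries, which per the study's methods came from independent experiments. All groups, the siNC groups included, were transfected, and no group of untransfected cells was analysed here. The model is 1 cell line, and the knockdown is transient.

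The serine synthesis pathway branches from glycolysis at 3-phosphoglycerate. PHGDH oxidises it, PSAT1 moves an amino group from glutamate onto the product, and PSPH removes the phosphate to give serine. SHMT1 in the cytosol and SHMT2 in mitochondria then split serine into glycine and a one-carbon unit carried on folate, which MTHFD1, MTHFD2 and MTHFD1L interconvert and pass on for nucleotide and methyl group synthesis. ALDH1L2 instead oxidises the one-carbon unit to CO2 in mitochondria. The genes of serine synthesis are known targets of the stress-response factor ATF4 in many cell types, and some brain tumours depend on the pathway.

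In these cells *PSAT1* stood at 62.4 ± 2.17 CPM with siNC and was 2.72-fold and 3.49-fold higher with siPDL1-1 and siPDL1-2 in unstimulated cells, and 2.98-fold and 3.27-fold higher after IFNγ. Of the 8 other genes, *ALDH1L2*, which encodes the mitochondrial 10-formyltetrahydrofolate dehydrogenase, was the only one past both thresholds with either siRNA. *PHGDH* and *PSPH*, which encode the enzymes directly before and after PSAT1, moved by at most 0.27 on the log2 scale. *MTHFD1* was lower with both siRNAs in both states. Over the 7 genes other than *PSAT1* and *ALDH1L2* and the 4 comparisons of an siRNA with siNC, the 28 log2 fold changes lay between -0.40 and 0.27. The upper end of the highest 95% interval among them was 0.35 (1.28-fold), below the fold change of 1.5 (0.585 on the log2 scale) at which genes were called.

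The data were normalized CPM, with between 17101069 and 55657393 reads counted on genes per library. Every member had at least 105 reads in every library. *CD274* itself was 4.60 and 4.91 CPM in siNC cells, 2.67 and 2.73 CPM under siPDL1-1 and 3.57 and 3.45 CPM under siPDL1-2 without stimulation. Once stimulated, it was 71.2 and 76.0 CPM, 60.9 and 66.7 CPM, and 37.5 and 35.04 CPM in the same order. In unstimulated cells *CD274* fell by 0.64 on the log2 scale with siPDL1-1 (FDR = 1.76e-05, limma) and by 0.35 with siPDL1-2 (FDR = 0.0018). After stimulation it fell by 1.001 with siPDL1-2 (FDR = 4.27e-07), and the value with siPDL1-1 was -0.20 (FDR = 0.0498). Among the markers of a glioma line, *VIM* ranged from 3139 to 3968 CPM over the 12 libraries, *SOX2* from 108 to 213 CPM and *GFAP* from 1.92 to 7.25 CPM, while *OLIG2* was at 0 in 2 libraries and at most 0.359 CPM. The 5 markers of leukocytes, endothelium and epithelium summed to between 0.147 and 0.986 CPM, and *CD3E* was at 0 in 11 libraries. Of the 7 glioma line markers tested, 1 was called with siPDL1-1 (*GFAP*, log2 fold change 0.59) and 2 with siPDL1-2 (*S100B*, 0.90, and *SOX2*, 0.59) in unstimulated cells, each higher. The shares of all genes called in these comparisons were 4% and 6.17%. *SOX2* was not called without siNC replicate 1 or siPDL1-2 replicate 2, at 0.52 and 0.53, nor *GFAP* without siNC replicate 1 or siPDL1-1 replicate 1, at 0.55 in each case, and neither was called with DESeq2's size factors. After IFNγ 0 of 7 were called by limma with siPDL1-1 and with siPDL1-2 (5.47% and 3.12% of all genes). Of these markers 5 and 3 had an unadjusted p under 0.05 in limma, edgeR called 1 and 0 and DESeq2 1 and 0. Their part in the members' changes was not tested.

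Promoter windows from RefSeq (GRCh38.p14) were matched by symbol for 6 of the 9 genes, in 9 windows. *PSPH*, *SHMT2* and *ALDH1L2* had no entry. The 250 bases before the start site are shown for *PSAT1* and for *PHGDH*, which encode consecutive enzymes and moved differently, and for *MTHFD1L*, the only gene among these with an ATF4 core in a window. Of its 4 windows, which belong to different start sites and partly overlap, 2 held the core, among them the one shown, and 2 did not. The windows are chr9:78296875-78297124 for *PSAT1*, chr1:119711684-119711933 for *PHGDH* and chr6:150866236-150866485 for *MTHFD1L*, all on the plus strand and written 5′ to 3′. Capitals mark matches to the motifs searched on both strands.
PSAT1: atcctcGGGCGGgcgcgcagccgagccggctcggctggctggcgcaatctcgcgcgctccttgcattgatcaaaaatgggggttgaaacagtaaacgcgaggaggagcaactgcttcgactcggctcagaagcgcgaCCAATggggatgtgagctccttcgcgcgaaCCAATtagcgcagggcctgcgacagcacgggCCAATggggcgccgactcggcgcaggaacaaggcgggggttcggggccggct
PHGDH: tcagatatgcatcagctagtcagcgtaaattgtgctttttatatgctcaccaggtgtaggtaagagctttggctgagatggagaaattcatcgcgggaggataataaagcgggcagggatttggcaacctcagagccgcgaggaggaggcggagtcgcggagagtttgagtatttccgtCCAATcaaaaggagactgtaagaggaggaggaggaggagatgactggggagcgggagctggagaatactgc
MTHFD1L: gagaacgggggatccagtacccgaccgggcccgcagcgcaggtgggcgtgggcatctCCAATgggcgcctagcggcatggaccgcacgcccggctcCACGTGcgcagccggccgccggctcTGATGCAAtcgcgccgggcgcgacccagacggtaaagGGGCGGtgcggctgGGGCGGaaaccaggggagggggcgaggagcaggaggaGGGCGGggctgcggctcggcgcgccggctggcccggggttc
The motifs, chosen after the members' values were known, were the CCAAT box (CCAAT), the GC box (GGGCGG), the E-box (CACGTG), the ATF4 core (TGATGNAA) and the antioxidant response element core (TGACNNNGC). Of 35116 RefSeq promoter windows of the same length, 32.0% held a CCAAT box, 42.6% a GC box, 6.34% an E-box, 3.14% an ATF4 core and 10.9% an antioxidant core. The *PSAT1* window held 3 CCAAT boxes and 1 GC box, the *PHGDH* window 1 CCAAT box, and the *MTHFD1L* window 1 ATF4 core, 1 E-box, 1 CCAAT box and 3 GC boxes. No 2 matches in these windows shared bases. A match describes the letters in the window and not a bound site.

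Levels of different genes were compared per kilobase of the canonical transcript. In unstimulated siNC cells *PHGDH* was the highest at 1267 CPM per kb. *SHMT2* followed at 122, *MTHFD2* at 76.2, *PSPH* at 61.5, *MTHFD1* at 45.3 and *MTHFD1L* at 39.7 CPM per kb. *SHMT1* at 29.3 and *PSAT1* at 28.3 CPM per kb came next, with overlapping libraries, and *ALDH1L2* was lowest at 0.665 CPM per kb. With siPDL1-2 in unstimulated cells *PSAT1* reached 98.7 CPM per kb, in place 3 behind *SHMT2* at 102 CPM per kb, and the libraries of these genes did not overlap. After IFNγ *PSAT1* was in place 8 with siNC, place 4 with siPDL1-1 and place 3 with siPDL1-2, where its libraries overlapped those of *MTHFD2*.

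*PSAT1* (ENSG00000135069, chromosome 9, 78297125 to 78330093, plus strand) encodes phosphoserine aminotransferase. In unstimulated cells it was 63.9 and 60.8 CPM in siNC cells, 169 and 171 CPM under siPDL1-1, and 216 and 219 CPM under siPDL1-2. In IFNγ-stimulated cells it was 52.2 and 53.1 CPM in siNC cells, 156 and 158 CPM under siPDL1-1, and 172 CPM in both siPDL1-2 libraries. The siRNA groups did not overlap siNC in either state. On the log2 scale, with a pseudocount of 1 CPM, siPDL1-1 differed from siNC by 1.43 and siPDL1-2 by 1.79 in unstimulated cells, and by 1.56 and 1.69 in stimulated cells, each with a standard error of 0.0409. Both siRNAs were compared with the same siNC libraries. Between the siRNAs *PSAT1* was lower with siPDL1-1, by log2 differences of -0.36 without stimulation and -0.13 after IFNγ. IFNγ itself went with a lower level in each siRNA group, the CPM differing by -15.5% with siNC, -7.66% with siPDL1-1 and -21.00% with siPDL1-2. The pooled SD of *PSAT1* within groups was 0.0234 on the log2 scale. In bulk samples a change in the share of cells and a change in the RNA of each cell cannot be told apart.

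**Figure D1:**
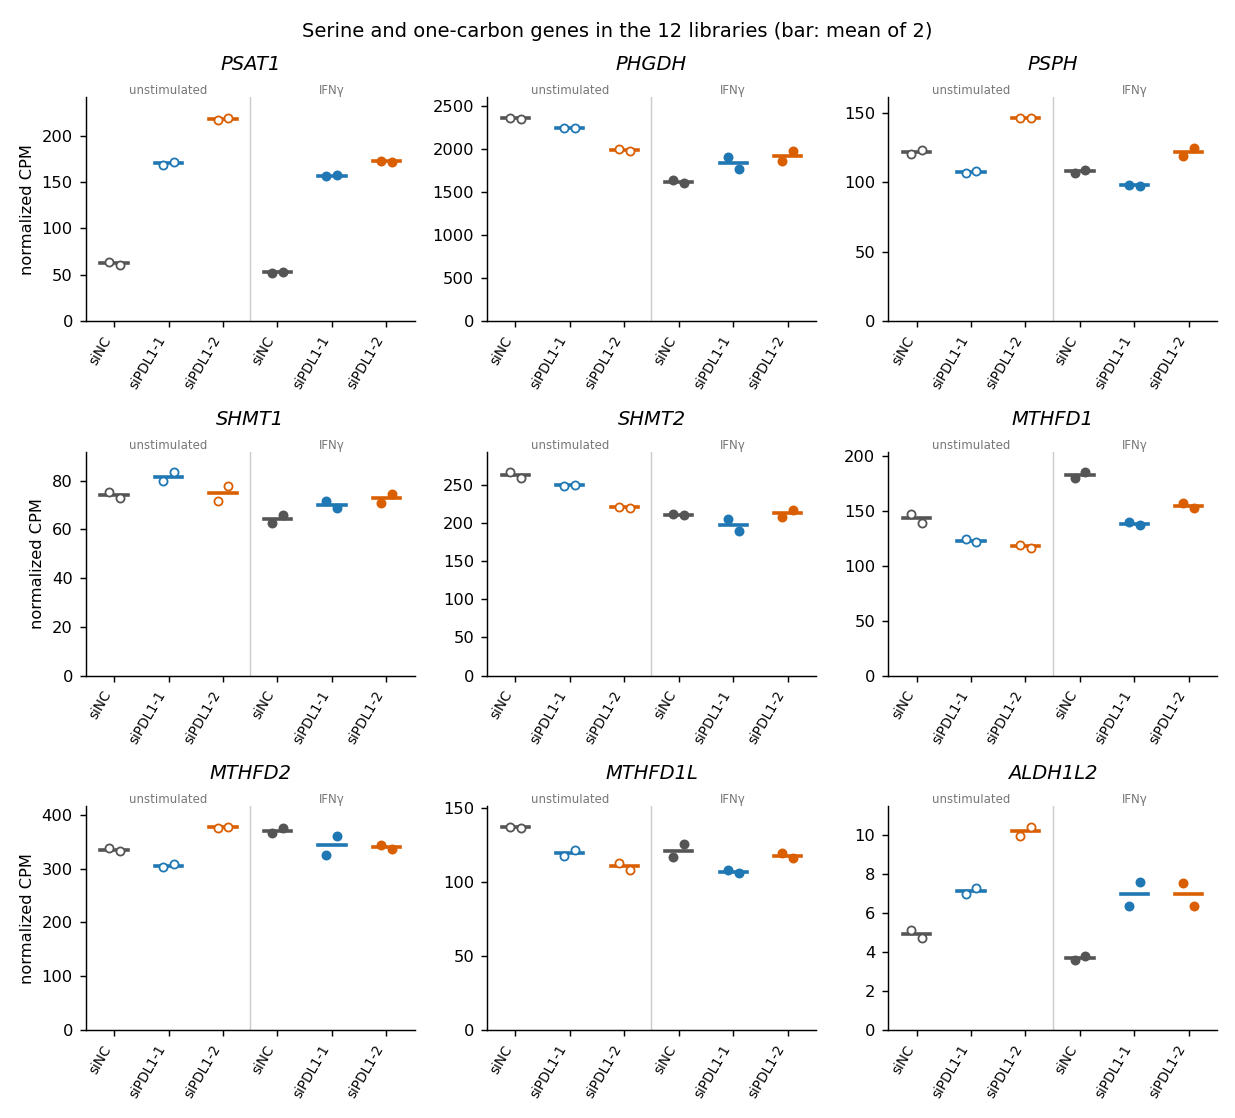
Normalized CPM (y axis, from 0) of the 9 genes in each library, by siRNA and stimulation (x axis). Points are single libraries, open without stimulation and filled after IFNγ, and bars are means of 2. *PSAT1* lay between 52.2 and 63.9 CPM in the siNC libraries and between 156 and 219 CPM in the others. Among the other genes shown, only *ALDH1L2* had all siNC libraries below all others. The share of all genes with such a split is not given here.

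The counts of the 8 other genes stood as follows against the rate over all genes tested. The share of all genes at an unadjusted p under 0.05 is not given here. Counts at that cut, for these genes and for the lists, therefore have no rate beside them. With siPDL1-1 in unstimulated cells 0 of 8 were called at FDR < 0.01 and fold change > 1.5 by limma (4% of all genes), 6 had an unadjusted p under 0.05, and edgeR and DESeq2 on the recovered reads also called 0. At FDR < 0.01 with any fold change, 4 of 8 passed (18.8% of all genes), 1 higher and 3 lower. With siPDL1-2 in unstimulated cells 1 of 8 was called (6.17% of all genes), and 7 of 8 passed the FDR (28.4% of all genes), 3 higher and 4 lower. After IFNγ 1 of 8 was called with siPDL1-1 (5.47% of all genes) and 4 of 8 passed the FDR (23.8%), 2 in each direction. With siPDL1-2 after IFNγ 1 of 8 was called (3.12%) and 4 of 8 passed the FDR (18.3%), 3 higher and 1 lower. The called gene was *ALDH1L2* each time. The median log2 fold change of the 8 genes was -0.11 with siPDL1-1 and -0.12 with siPDL1-2 in unstimulated cells, beside 0.016 and 0.028 over all genes. After IFNγ it was -0.10 and 0.091, beside -0.0052 and -0.0063.

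**Figure D2:**
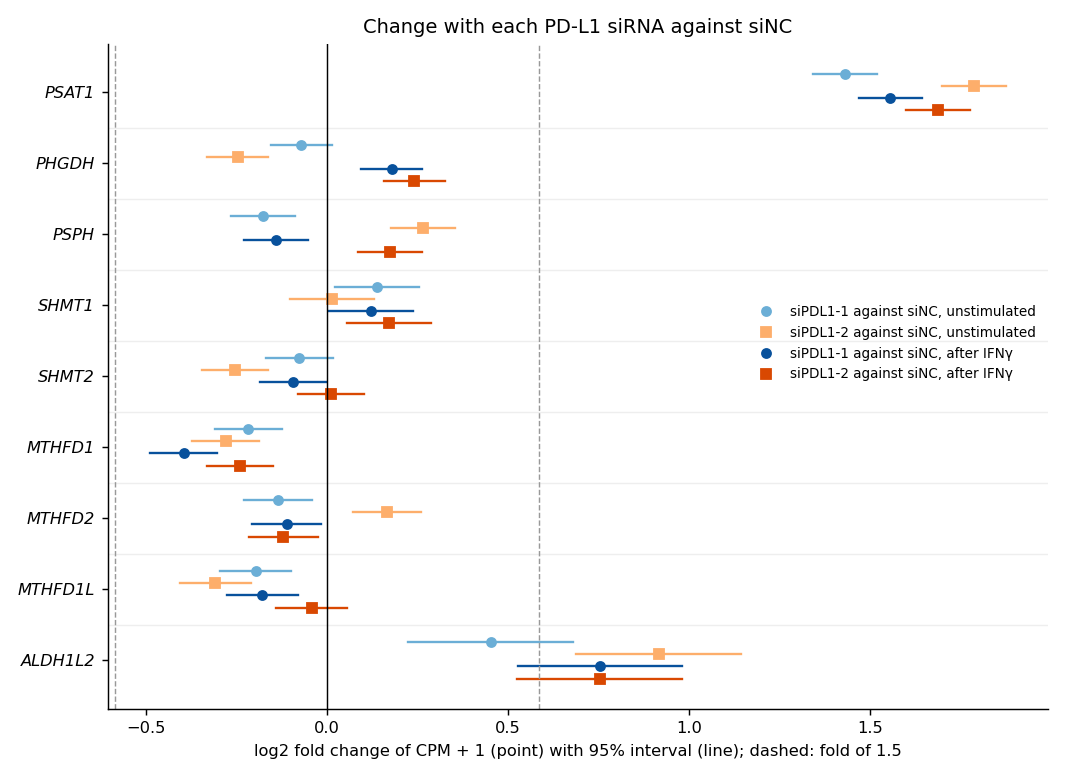
Log2 fold change of CPM plus 1 (x axis) for each gene (y axis) with siPDL1-1 (circles) and siPDL1-2 (squares) against siNC, unstimulated in light and after IFNγ in dark colours, with 95% intervals as lines. Dashed lines mark a fold change of 1.5. *PSAT1* lay between 1.43 and 1.79, the *ALDH1L2* values between 0.45 and 0.92, and the other 7 genes between -0.40 and 0.27.

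*PHGDH* (ENSG00000092621, chromosome 1, 119648411 to 119744218, plus strand) encodes phosphoglycerate dehydrogenase, the first enzyme of the pathway. Without stimulation it was 2370.2 and 2358 CPM in siNC cells, 2255 and 2246 CPM under siPDL1-1, and 2008 and 1977 CPM under siPDL1-2. Once stimulated, it was 1638 and 1613 CPM in siNC cells, 1917 and 1769 CPM under siPDL1-1, and 1861 and 1985 CPM under siPDL1-2. The siNC libraries were thus the highest of the 3 siRNAs without IFNγ and the lowest after it. With siPDL1-2 *PHGDH* fell by 0.25 on the log2 scale in unstimulated cells (FDR = 1.64e-04, limma) and rose by 0.24 after IFNγ (FDR = 3.61e-04). With siPDL1-1 the log2 fold change was -0.071 without stimulation (95% interval -0.16 to 0.013, FDR = 0.203), and *PHGDH* rose by 0.18 after IFNγ (FDR = 0.0024). The change in the siPDL1-2 effect with IFNγ was 0.49 on the log2 scale (standard error 0.0558, FDR = 5.23e-05), and that of siPDL1-1 was 0.25 (FDR = 0.0212). In a fit of the IFNγ libraries alone the FDR of the rises after IFNγ was 0.0111 for siPDL1-2 and 0.0326 for siPDL1-1.

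*PSPH* (ENSG00000146733, chromosome 7, 56011051 to 56051604, minus strand) encodes phosphoserine phosphatase, the last enzyme of serine synthesis, and in unstimulated cells it fell with siPDL1-1 and rose with siPDL1-2. In unstimulated cells it was 120.0 and 123 CPM in siNC cells, 106 and 108 CPM under siPDL1-1, and 146 CPM in both siPDL1-2 libraries. In IFNγ-stimulated cells it was 107 and 109 CPM in siNC cells, 98.0 and 97.4 CPM under siPDL1-1, and 119 and 125 CPM under siPDL1-2. The 3 siRNAs did not overlap in either state. Without stimulation *PSPH* fell by 0.18 on the log2 scale with siPDL1-1 (FDR = 0.0045, limma, under 0.01 in 13 of 19 alternatives) and rose by 0.27 with siPDL1-2 (FDR = 1.28e-04, in 19 of 19). After IFNγ the log2 fold changes were -0.14 (FDR = 0.0147) and 0.17 (FDR = 0.0054, in 10 of 19). The siRNAs themselves differed by -0.44 without stimulation (FDR = 2.56e-06) and by -0.31 after IFNγ (FDR = 7.49e-05), siPDL1-1 being lower, and these differences kept an FDR under 0.01 in 19 of 19 alternatives.

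Of the serine hydroxymethyltransferases, *SHMT2* fell with siPDL1-2 in unstimulated cells, and no difference in *SHMT1* between an siRNA and siNC passed the FDR. *SHMT1* (ENSG00000176974, chromosome 17, 18327860 to 18363563, minus strand), the cytosolic enzyme, was 75.2 and 72.8 CPM in unstimulated siNC cells, 79.7 and 83.5 CPM under siPDL1-1, and 71.7 and 77.8 CPM under siPDL1-2. With IFNγ these were 62.8 and 66.0 CPM, 71.5 and 68.7 CPM, and 70.7 and 74.7 CPM, so that the siNC libraries were the lowest after stimulation. Its log2 fold changes of 0.14, 0.014, 0.12 and 0.17 (siPDL1-1 and siPDL1-2 without stimulation, then after IFNγ) had FDR values of 0.0695, 0.872, 0.0997 and 0.0266. *SHMT2* (ENSG00000182199, chromosome 12, 57229573 to 57234935, plus strand), the mitochondrial enzyme, was 266 and 259 CPM in unstimulated siNC cells, 249 CPM in both siPDL1-1 libraries, and 220.4 and 219.9 CPM with siPDL1-2. It fell by 0.25 on the log2 scale with siPDL1-2 (FDR = 2.67e-04, limma), and the value of -0.077 with siPDL1-1 had an FDR of 0.210. After IFNγ *SHMT2* was 211 and 209.6 CPM in siNC cells, 205 and 189 CPM under siPDL1-1, and 207 and 217 CPM under siPDL1-2. These log2 fold changes were -0.094 (95% interval -0.19 to -0.0023) and 0.011 (95% interval -0.081 to 0.10), with FDR values of 0.106 and 0.879.

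*MTHFD1* (ENSG00000100714, chromosome 14, 64388031 to 64463457, plus strand) encodes the cytosolic trifunctional enzyme that supplies 10-formyltetrahydrofolate for purine synthesis, and it was lower with both siRNAs. It was 147 and 139 CPM in unstimulated siNC cells, 124 and 121 CPM with siPDL1-1, and 118 and 116 CPM with siPDL1-2. After IFNγ it was 179.6 and 185 CPM in siNC cells, 139 and 137 CPM under siPDL1-1, and 156 and 152 CPM under siPDL1-2. The siRNA libraries lay below the siNC libraries in both states. The log2 fold changes were -0.22 (FDR = 0.0013, limma, under 0.01 in 16 of 19 alternatives) and -0.28 (FDR = 1.12e-04) without stimulation, and -0.40 (FDR = 4.57e-06) and -0.24 (FDR = 7.06e-04, in 17 of 19) after IFNγ. In CPM these were changes of between -24.2% and -14.1%, under the fold change threshold.

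The mitochondrial one-carbon enzymes moved in different directions. *MTHFD2* (ENSG00000065911, chromosome 2, 74186172 to 74217565, plus strand), the methylenetetrahydrofolate dehydrogenase that is commonly high in tumours, was 338 and 333 CPM in siNC cells, 302 and 308 CPM under siPDL1-1, and 375 and 378 CPM under siPDL1-2 in unstimulated cells. Its log2 fold change was 0.17 with siPDL1-2 (FDR = 0.0076, limma, under 0.01 in 10 of 19 alternatives) and -0.14 with siPDL1-1 (FDR = 0.0329), and the siRNAs differed by -0.30 (FDR = 1.20e-04). Once stimulated, it was 367 and 375 CPM in siNC cells, 326 and 361 CPM under siPDL1-1, and 344 and 337 CPM under siPDL1-2. The log2 fold changes there were -0.11 (FDR = 0.0658) and -0.12 (FDR = 0.0516).

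*MTHFD1L* (ENSG00000120254, chromosome 6, 150865679 to 151101887, plus strand), the mitochondrial formyltetrahydrofolate synthetase, was 137 CPM in both unstimulated siNC libraries, 118 and 121 CPM with siPDL1-1, and 113 and 108 CPM with siPDL1-2. It fell by 0.20 (FDR = 0.0046, limma, under 0.01 in 14 of 19 alternatives) and by 0.31 (FDR = 9.16e-05, in 19 of 19) on the log2 scale. In IFNγ-stimulated cells it was 117 and 126 CPM in siNC cells, 108 and 106 CPM under siPDL1-1, and 119 and 116 CPM under siPDL1-2. The log2 fold change was -0.18 with siPDL1-1 (FDR = 0.0069, in 5 of 19) and -0.043 with siPDL1-2 (FDR = 0.530), where the libraries overlapped those of siNC.

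*ALDH1L2* (ENSG00000136010, chromosome 12, 105019784 to 105107643, minus strand) had between 105 and 416 reads per library, the fewest of the 9 genes. Without stimulation it was 5.14 and 4.73 CPM in siNC cells, 6.96 and 7.27 CPM under siPDL1-1, and 9.97 and 10.4 CPM under siPDL1-2. After IFNγ it was 3.60 and 3.82 CPM in siNC cells, 6.36 and 7.57 CPM under siPDL1-1, and 7.56 and 6.35 CPM under siPDL1-2. All 8 siRNA libraries lay above all 4 siNC libraries. With siPDL1-2 it rose by 0.92 on the log2 scale without stimulation (FDR = 9.95e-06, limma) and by 0.75 after IFNγ (FDR = 1.10e-04). With siPDL1-1 it rose by 0.76 after IFNγ (FDR = 5.96e-05), and the value of 0.45 without stimulation (FDR = 0.0048, under 0.01 in 13 of 19 alternatives) was below the fold change threshold. The pseudocount shrinks folds at this level, and the ratios of mean CPM were 1.44 and 2.07 for siPDL1-1 and siPDL1-2 without stimulation and 1.88 for each after IFNγ. The siRNAs differed by -0.46 without stimulation (FDR = 0.0033, in 14 of 19) and by 0.0017 after IFNγ (95% interval -0.23 to 0.23, FDR = 0.994).

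The strand of the reads was not used in counting, and *ALDH1L2* shares 131 of its 9493 exonic bases with *WASHC4* and 145 with *C12orf45*, which lie on the opposite strand and averaged 58.7 and 11.4 CPM against 6.65 CPM for *ALDH1L2*. For *WASHC4* the log2 fold changes were 0.042 and 0.72 in unstimulated cells (siPDL1-1, then siPDL1-2) and 0.41 and -0.10 in stimulated cells, and for *C12orf45* 0.13, 0.11, -0.13 and -0.35. Those of *ALDH1L2* in the same order were 0.45, 0.92, 0.76 and 0.75. The share of *ALDH1L2* reads from the overlaps was not tested. Genes on the opposite strand also share 1556 of 17357 exonic bases of *MTHFD1* (*AL122035.2*, 1.12 CPM) and 178 (*ZBTB25*, 25.7 CPM), 352 of 4592 of *SHMT2* (*AC137834.2*, 0.102 CPM) and 33 (*NDUFA4L2*, 7.28 CPM), 1324 of 11443 of *MTHFD2* (*SLC4A5*, 1.12 CPM) and 197 of 7015 of *SHMT1* (*SMCR8*, 59.8 CPM). GENCODE lists 4 pseudogenes named for *PSAT1*, 7 for *MTHFD2*, 13 for *PGAM1* and 1 each for *PSPH*, *SHMT1* and *MTHFD1*, which were not analysed here, and how reads shared with them were assigned was not tested.

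**Figure D3:**
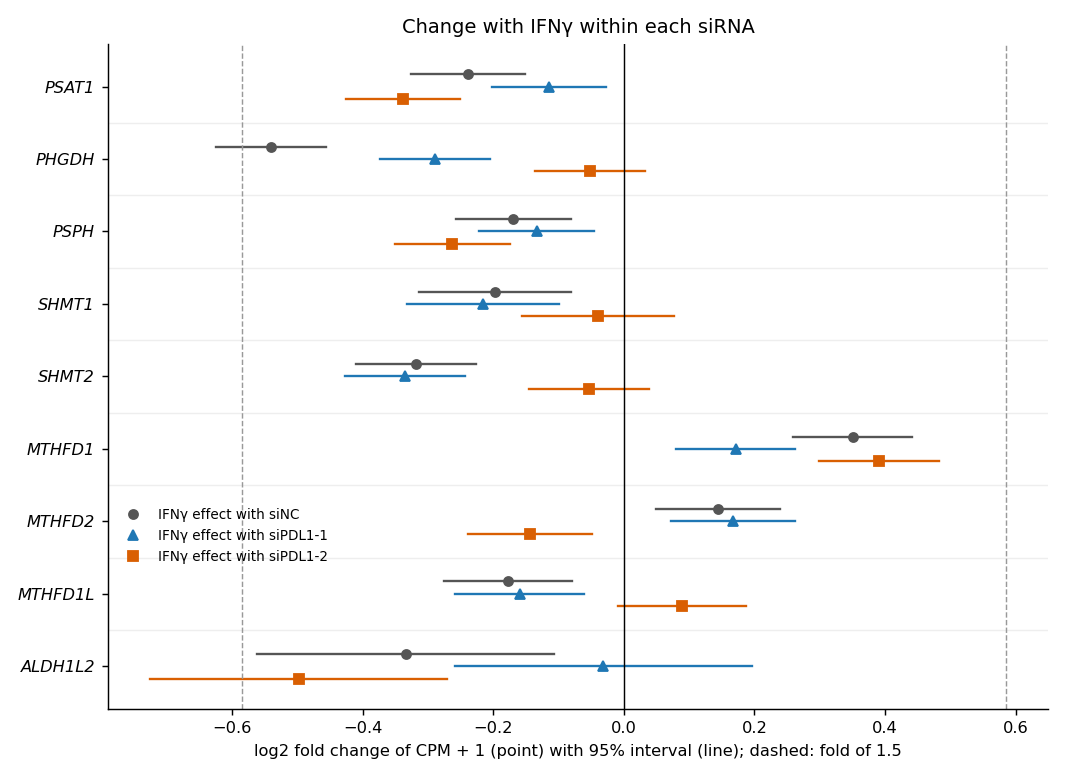
Log2 fold change of CPM plus 1 with IFNγ (x axis) for each gene (y axis), within siNC (circles), siPDL1-1 (triangles) and siPDL1-2 (squares), with 95% intervals as lines and dashed lines at a fold change of 1.5. *PHGDH* lay at -0.54, -0.29 and -0.052, and *MTHFD1* was above 0 with all 3 siRNAs.

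IFNγ moved the 8 genes by less than the fold change threshold in all 3 siRNA groups. By limma, 0 of 8 were called with siNC (8.12% of all genes), 0 of 8 with siPDL1-1 (6.87%) and 0 of 8 with siPDL1-2 (5.26%), while 8, 7 and 4 had an unadjusted p under 0.05, and edgeR and DESeq2 called 0 in each. At FDR < 0.01 with any fold change, 6 of 8 passed with siNC (27.2% of all genes), 5 of 8 with siPDL1-1 (22.9%) and 3 of 8 with siPDL1-2 (17.1%). With siNC, IFNγ lowered *PHGDH* by 0.54 (FDR = 4.88e-08, limma) and *SHMT2* by 0.32 (FDR = 3.26e-05) on the log2 scale and raised *MTHFD1* by 0.35 (FDR = 1.20e-05). *PSPH*, *SHMT1* and *MTHFD1L* fell by between 0.17 and 0.20 with siNC, with FDR values of 0.0044, 0.0096 and 0.0066, which stayed under 0.01 in 14, 8 and 9 of 18 alternatives. With siPDL1-1, *PHGDH* fell by 0.29 (FDR = 4.16e-05) and *SHMT2* by 0.34 (FDR = 2.28e-05). With siPDL1-2, *PHGDH* was at -0.052 (FDR = 0.358) and *SHMT2* at -0.053 (FDR = 0.395), *PSPH* fell by 0.26 (FDR = 2.34e-04), and *MTHFD1* rose by 0.39 (FDR = 6.27e-06). *ALDH1L2* had log2 fold changes of -0.33 (FDR = 0.0217), -0.031 (FDR = 0.856) and -0.50 (FDR = 0.0028) with siNC, siPDL1-1 and siPDL1-2. The last of these kept an FDR under 0.01 in 14 of 18 alternatives. Without replicate 1 of siPDL1-2 after IFNγ it was -0.61, past the fold change threshold, and without replicate 2 it was -0.39.

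Whether an siRNA acted differently after IFNγ was tested as an interaction. For siPDL1-1 0 of 8 genes were called (0.967% of all genes) and 0 passed the FDR (1.63%), 2 had an unadjusted p under 0.05, and edgeR and DESeq2 called 0. For siPDL1-2 0 of 8 were called (7.62%) and 4 of 8 passed the FDR (17%), 4 had an unadjusted p under 0.05, and edgeR and DESeq2 called 0. Beside *PHGDH* these were *SHMT2* (0.27, FDR = 0.0046, limma), *MTHFD1L* (0.27, FDR = 0.0069) and *MTHFD2* (-0.29, FDR = 0.0034). For *ALDH1L2* the interaction was 0.30 with siPDL1-1 (FDR = 0.354) and -0.16 with siPDL1-2 (FDR = 0.459), with standard errors of 0.151. For *PSAT1* it was 0.12 with siPDL1-1 and -0.0995 with siPDL1-2, with standard errors of 0.0579. Between the siRNAs themselves, 0 of 8 genes were called without stimulation (4.35% of all genes) and 5 of 8 passed the FDR (24.1%), and 0 of 8 were called after IFNγ (2.23%) and 1 of 8, *PSPH*, passed the FDR (10.5%). In these comparisons 7 and 4 genes had an unadjusted p under 0.05, and edgeR and DESeq2 called 0.

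The wider pathway was read from lists of related genes. Of the 6 genes around 3-phosphoglycerate, the branch point of serine synthesis, 1 was called with each siRNA in each state (beside 4% and 6.17% of all genes with siPDL1-1 and siPDL1-2 without stimulation, and 5.47% and 3.12% after IFNγ), and this was *PGAM1*, the phosphoglycerate mutase that takes 3-phosphoglycerate on to 2-phosphoglycerate. *PGAM1* was 344 and 353 CPM in unstimulated siNC cells, 783 and 780.4 CPM with siPDL1-1, and 679 and 671 CPM with siPDL1-2. Once stimulated, it was 418 and 398 CPM, 892 and 830.1 CPM, and 754 and 813 CPM in the same order. On the log2 scale it rose by 1.16 and 0.95 in unstimulated and by 1.07 and 0.94 in stimulated cells, and the siRNA groups did not overlap siNC. The medians of this list were between -0.15 and -0.097.

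Of the 19 genes of the folate cycle and folate transport, 1 was called with siPDL1-1 in each state, 1 with siPDL1-2 without stimulation and 0 with siPDL1-2 after IFNγ, where 7 had an unadjusted p under 0.05 in limma and edgeR and DESeq2 called 0. The count of 1 in 19 was near the share of all genes called, 4% and 5.47% with siPDL1-1 and 6.17% with siPDL1-2. With siPDL1-2 after IFNγ that share was 3.12%. *SLC25A32*, the mitochondrial folate carrier, was lower with siPDL1-1 by 0.86 without stimulation (FDR = 1.06e-05, limma) and 0.94 after IFNγ. *SLC19A1*, the reduced folate carrier of the plasma membrane, fell by 0.94 with siPDL1-2 in unstimulated cells. No other siRNA comparison of these carriers was called, but the means of both were lower with each siRNA in each state. With siNC, siPDL1-1 and siPDL1-2 *SLC25A32* averaged 26.8, 14.3 and 24.2 CPM without stimulation and 32.1, 16.5 and 21.8 CPM after IFNγ. *SLC19A1* averaged 66.0, 50.4 and 33.8 CPM, and 46.4, 36.8 and 34.5 CPM after IFNγ. None of the 4 glycine cleavage genes, the 9 tested genes of the methionine cycle and transsulfuration or the 6 genes of purine synthesis was called by limma with either siRNA. The shares of all genes called were between 3.12% and 6.17% in these comparisons. Unadjusted p-values under 0.05 were found for between 1 and 3, 4 and 7, and 4 and 6 of them per comparison, and edgeR called 1 gene of the first list in 1 comparison and 1 of the second in 2 comparisons, as did DESeq2 for the second list. Of the 6 purine genes, 1 with siPDL1-1 and 5 with siPDL1-2 passed the FDR in unstimulated cells (18.8% and 28.4% of all genes), and 4 and 2 did so after IFNγ (23.8% and 18.3%), all of them lower. The list medians were between -0.18 and -0.12.

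Of the 9 tested genes of serine transport and catabolism, 0 were called in unstimulated cells by limma with siPDL1-1 or siPDL1-2 (4% and 6.17% of all genes). There 6 and 3 had an unadjusted p under 0.05, and edgeR and DESeq2 called 0. After IFNγ 2 were called higher with each siRNA (5.47% and 3.12% of all genes). *SLC1A4*, a transporter of serine and other neutral amino acids, was 38.7 CPM in siNC cells, 61.9 CPM under siPDL1-1 and 66.2 CPM under siPDL1-2 after IFNγ (log2 fold changes 0.67 and 0.76). *SDS*, serine dehydratase, rose by 0.97 with siPDL1-1 on the log2 scale with the pseudocount, its mean going from 0.499 to 1.93 CPM. The log2 fold change of *SDS* on the recovered reads was 1.97 in DESeq2, which gave no adjusted p. With siPDL1-2 *SDS* averaged 0.195 CPM after IFNγ, below siNC. *SDSL*, a related enzyme, rose by 0.67 with siPDL1-2. It averaged 4.49 CPM with siNC, 7.13 CPM with siPDL1-1, where limma did not call it, and 7.77 CPM with siPDL1-2. Among the genes of glutamate-linked amino acid synthesis, which supply or use the glutamate that PSAT1 needs, *BCAT1*, a branched-chain aminotransferase, rose by 0.61 with siPDL1-2 without stimulation, and was at 0.58 and not called with DESeq2's size factors. The other 3 comparisons were siPDL1-1 without stimulation, then siPDL1-1 and siPDL1-2 after IFNγ. There limma called 0 of the 13 genes of this list, beside 4%, 5.47% and 3.12% of all genes. In the same order 7, 6 and 9 genes of the list had an unadjusted p under 0.05, and edgeR and DESeq2 called 0.

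Of the 10 regulators of serine synthesis genes, *MYC* was lower with both siRNAs. It was 17.9 and 19.9 CPM in unstimulated siNC cells, 10.6 and 10.5 CPM with siPDL1-1, and 8.65 and 7.72 CPM with siPDL1-2. In IFNγ-stimulated cells it was 14.1 and 12.8 CPM, 8.91 and 8.28 CPM, and 7.80 and 9.19 CPM in the same order. On the log2 scale the differences from siNC were -0.78 and -1.11 in unstimulated and -0.59 and -0.61 in stimulated cells. Without replicate 1 of siNC after IFNγ the latter were -0.52 and -0.54, without replicate 2 of siPDL1-1 after IFNγ the first was -0.54, and without replicate 1 of siPDL1-2 after IFNγ the second was -0.50, none of which was called. With the size factors of DESeq2 the value for siPDL1-1 was -0.57, also not called. *EIF2AK2*, the double-stranded RNA-activated kinase PKR, rose by 1.47 with siPDL1-1 after IFNγ. *ATF4* itself had log2 fold changes of -0.42 (FDR = 9.37e-07, limma) and -0.14 (FDR = 0.0082) without stimulation and of -0.24 (FDR = 1.23e-04) and -0.049 (FDR = 0.346) after IFNγ. All 4 values were below 0.

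The 13 other ATF4 targets did not move as one. With siPDL1-1 in unstimulated cells 1 was called (4% of all genes), *DDIT3*, which fell by 0.68, and 10 of 13 passed the FDR (18.8% of all genes), 9 lower and 1 higher, with a list median of -0.37. With siPDL1-2 after IFNγ 2 were called (3.12% of all genes), *TRIB3* and *CHAC1*, which rose by 0.72 and 0.66, and 9 of 13 passed the FDR (18.3% of all genes), 6 higher and 3 lower, with a median of 0.20. *CHAC1* was 0.54 without replicate 2 of siNC after IFNγ and 0.51 without replicate 2 of siPDL1-2 after IFNγ, and was then not called. In the other 2 comparisons (siPDL1-2, unstimulated, and siPDL1-1, after IFNγ) limma called 0 of 13, beside 6.17% and 5.47% of all genes. There 10 and 9 genes had an unadjusted p under 0.05, edgeR called 1 and 0 and DESeq2 0 and 0.

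**Figure D4:**
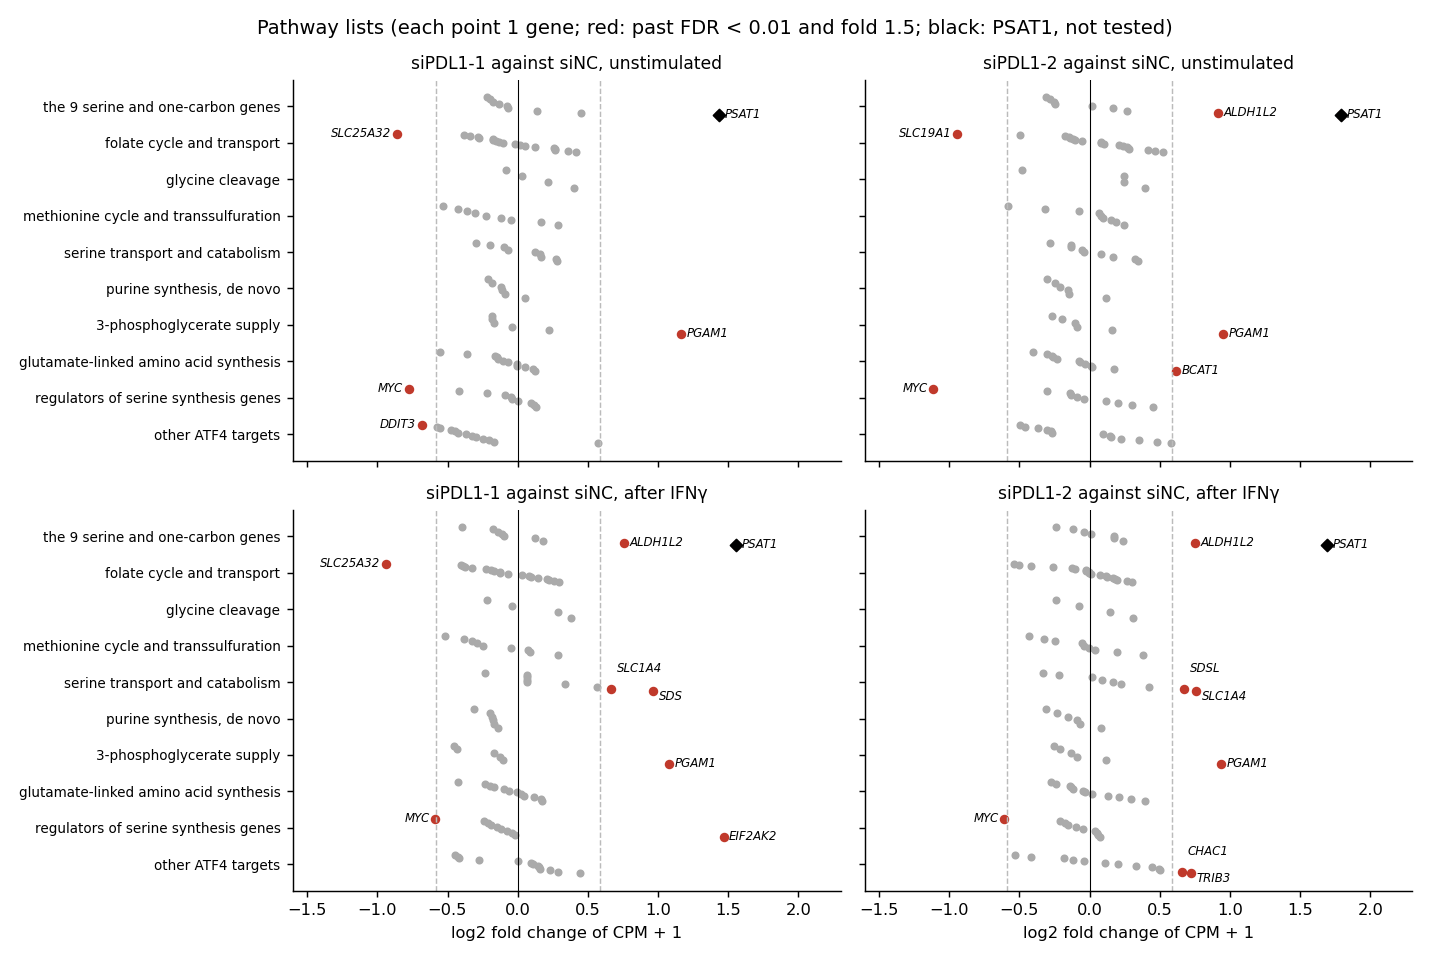
Log2 fold change of CPM plus 1 (x axis) of the genes of the pathway lists (rows), without 1 gene that is not reported here, 1 panel for each comparison of an siRNA with siNC. Red points are past FDR < 0.01 and a fold change of 1.5 (dashed lines), and the black diamond is *PSAT1*, which was not tested. *PGAM1* was to the right and *MYC* to the left of the dashed lines in all 4 panels.

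The summed proliferation markers were lower with both siRNAs, while type I interferon markers were called higher with siPDL1-1 only. The 7 proliferation markers summed to between 2125 and 2140.0 CPM in unstimulated siNC cells, 1491 and 1502 CPM with siPDL1-1, and 1695 and 1716 CPM with siPDL1-2. After IFNγ the sums were 1985 to 2024 CPM, 1234 to 1238 CPM, and 1426 to 1527 CPM. With siPDL1-1, 3 of 7 were called lower without stimulation and 6 of 7 after IFNγ, and with siPDL1-2 0 of 7 and 2 of 7. The shares of all genes called were 4% and 5.47% with siPDL1-1 and 6.17% and 3.12% with siPDL1-2. For the count of 0, 6 had an unadjusted p under 0.05 in limma, edgeR called 0 and DESeq2 called 1. With siPDL1-2, 5 of 7 passed the FDR without stimulation (28.4% of all genes) and 7 of 7 after IFNγ (18.3%), 1 of them higher each time. *MKI67* with siPDL1-2 after IFNγ was at -0.59, between -0.69 and -0.49 over the alternatives. It was not called by DESeq2 or with DESeq2's size factors. The 7 type I interferon markers summed to between 1938 and 2011 CPM with siPDL1-1 after IFNγ, against 160 to 182 CPM with siNC and 187 to 196 CPM with siPDL1-2. Of these 7, 5 without stimulation and 6 after IFNγ were called higher with siPDL1-1, and 0 in either state with siPDL1-2, where 2 and 5 had an unadjusted p under 0.05 in limma and edgeR and DESeq2 called 0. The interferon marker sums without stimulation were 30.6 to 31.4 CPM with siNC, 55.9 to 56.5 CPM with siPDL1-1 and 24.5 to 26.4 CPM with siPDL1-2. The part of either marker list in the members' changes was not tested.

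The genes whose level was most like that of *PSAT1* over the 12 libraries were chosen by Pearson's r of log2 of CPM plus 1, among the 11588 genes that averaged 5 CPM or more. They were *CALU* (r = 0.987), a calcium-binding protein of the secretory pathway, *NCSTN* (0.986), a subunit of gamma-secretase, *ERMAP* (0.981), *VLDLR* (0.979), the very-low-density lipoprotein receptor, and *SCD* (0.979), stearoyl-CoA desaturase. *VLDLR* is also one of the listed ATF4 targets. The libraries fall into 6 groups that share their siNC samples, so these values describe a pattern and carry no p. *CALU* was 373 CPM in siNC cells, 690.3 CPM under siPDL1-1 and 761 CPM under siPDL1-2 without stimulation. Of the other members *ALDH1L2* came closest, at r = 0.93 and place 65 of 11587, and *PGAM1* was at 0.90 and place 138. *SHMT1* was at 0.55, *PSPH* at 0.27, *PHGDH* at 0.15, *MTHFD2* at -0.15, *SHMT2* at -0.24, *MTHFD1L* at -0.69 and *MTHFD1* at -0.73.

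**Figure D5:**
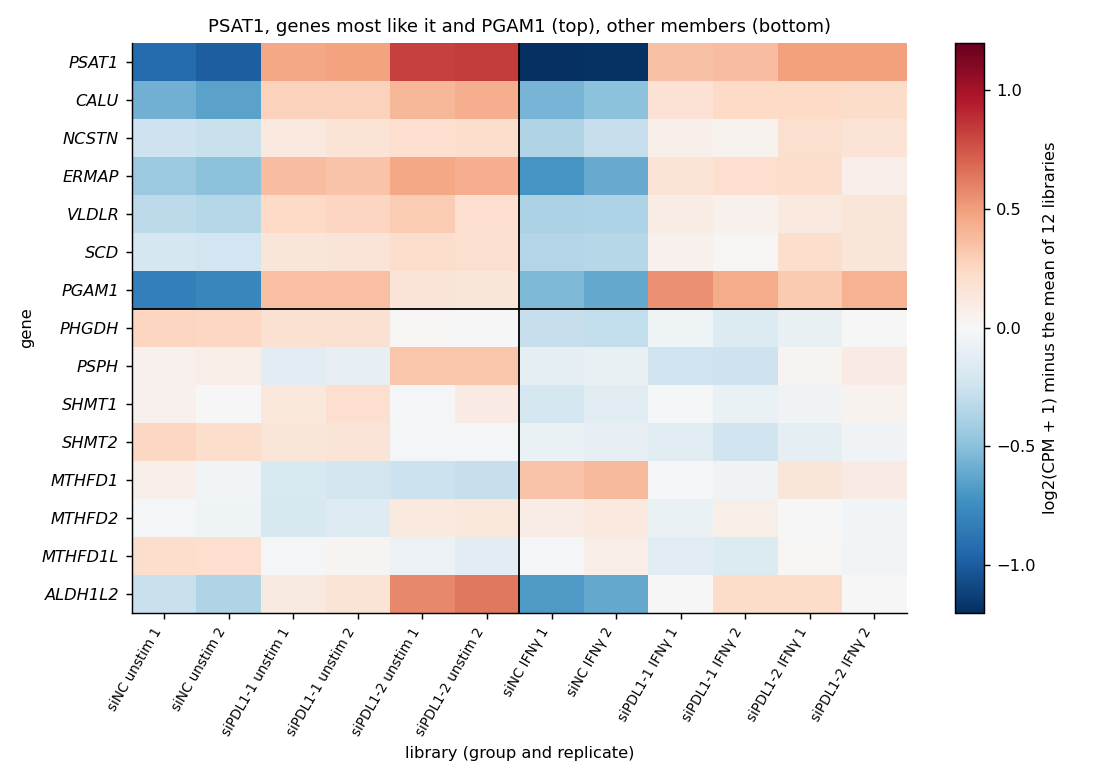
Log2 of CPM plus 1 of each gene (rows) minus its mean over the 12 libraries (colour), for *PSAT1*, the 5 genes most like it and *PGAM1* above the line and the other 8 members below it, by library (columns). The top rows and *ALDH1L2* were lower in all 4 siNC libraries than in any other, and the remaining members showed no such split. The genes above the line were chosen from these same values, so their split is no separate finding.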

How the data were processed

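RNA-seq was available for 12 libraries of U251 cells in 6 conditions. The authors, per the study's methods, used CLC Genomics Workbench 22.0.2 for read trimming and for mapping to GRCh38 (Ensembl genes), with the strand setting both. The deposited signal values are normalized CPM scaled by library factors equal to those of TMM. Divided by the worth of 1 read, 100% of values came out whole (tolerance 0.1) in each of the libraries, so reads were recovered. Labels and methods name different extraction kits and sequencers.

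Groups came from the sample labels. Log2 of CPM plus 1 was fitted with limma (trend and robust) over 12 libraries as 6 groups, for genes kept by filterByExpr (minimum count 10, total 15), and p-values were adjusted by Benjamini-Hochberg over 17989 genes. The call rule was FDR < 0.01 together with a fold change > 1.5.

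The members and lists were chosen with earlier results of these data known. Named are the 9 members, *CD274*, for each list up to 4 genes called in a comparison of an siRNA with siNC by largest change, and the 5 genes most like *PSAT1* by Pearson's r. *ATF4*, *WASHC4* and *C12orf45* were named after their values were seen. The lists cover the folate cycle and transport, glycine cleavage, methionine cycle and transsulfuration, serine transport and catabolism, purine synthesis, 3-phosphoglycerate supply, glutamate-linked amino acid synthesis, regulators, other ATF4 targets, proliferation, type I interferon, glioma line and other cell type markers. For 1 gene of these lists the result is not reported here.

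Alternatives were edgeR's quasi-likelihood and DESeq2's Wald test on recovered reads, a pseudocount of 0.1, no filter, DESeq2's size factors, 6 libraries of 1 stimulation state, replicate number as a covariate, each library left out, and FDR < 0.05 without a fold threshold. FDR < 0.01 with any fold and ratios of mean CPM were chosen after seeing the data. On simulated data for 17989 genes, of which 200 carried a log2 change of 0.8 in siPDL1-1 against siNC without stimulation, limma called 193, with 0 false calls. The simulation gave all genes the same dispersion and changed no gene of low level, so these rates need not hold for the real libraries. Replicates were checked for duplication (mean chi-square of 1.83 to 7.22 per gene). Fits used limma 3.58.1, DESeq2 1.42.0 and edgeR 4.0.16 in R 4.3.3. Tables and figures used pandas 2.3.3, scipy 1.17.1, numpy 2.4.6 and matplotlib 3.10.9 in Python 3.11.15, and gene overlaps came from GENCODE 44.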

Additional observations from a re-analysis of the deposited data

Results flagged for a closer look

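The effect of siPDL1-2 against siNC differed between unstimulated and IFNγ-stimulated cells for 4 of the 8 members, by the interaction term in limma at FDR < 0.01. Over all genes tested, 17% passed the same FDR for this term. The differences, effect after IFNγ minus effect without it, were 0.49 for *PHGDH*, 0.27 for *SHMT2*, 0.27 for *MTHFD1L* and -0.29 for *MTHFD2* on the log2 scale. All 4 were below a fold change of 1.5. The FDR of *PHGDH* stayed under 0.01 in 18 of 18 alternatives, that of *SHMT2* in 9, of *MTHFD1L* in 7 and of *MTHFD2* in 10. The siPDL1-2 libraries supply both effects, and siNC libraries enter them as well.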

How the results depend on the processing

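The number of the 8 members called with each siRNA did not change by more than 1.5 times with another test, normalization, pseudocount, filter or subset of libraries, other than for IFNγ with siPDL1-2, where it ranged from 0 to 1 with each library left out in turn. Without a fold threshold, FDR < 0.05 gave 5, 7, 5 and 5 members for the siRNA comparisons (siPDL1-1 and siPDL1-2 without stimulation, then after IFNγ), 5 and 2 between the siRNAs, 8, 7 and 4 for IFNγ with siNC, siPDL1-1 and siPDL1-2, and 1 and 4 for the interactions. FDR < 0.01 gave 4, 7, 4 and 4, then 5 and 1, then 6, 5 and 3, and 4 for the siPDL1-2 interaction. The shares of all genes past FDR < 0.01 were 18.8%, 28.4%, 23.8% and 18.3%, then 24.1% and 10.5%. For IFNγ they were 27.2%, 22.9% and 17.1%, and for the siPDL1-2 interaction 17%. The shares of all genes at FDR < 0.05 are not given here. Of 43 member comparisons past FDR < 0.01, 20 stayed past it in every alternative. The number past it was 29 without a filter, between 26 and 42 with 1 library left out, and 43 with edgeR, and none of the 43 changed sign.

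Sign changes occurred only in values near 0 that had missed the FDR. *SHMT1* with siPDL1-2 without stimulation was -0.0201 in DESeq2's test and -0.0217 with its size factors, and -0.0442 to 0.0715 with each library left out. On leaving out libraries, *SHMT2* with siPDL1-2 after IFNγ ranged from -0.0227 to 0.0450, *MTHFD1L* there from -0.0936 to 0.0085, and the difference of the siRNAs in *ALDH1L2* after IFNγ from -0.109 to 0.112. IFNγ effects ranged from -0.142 to 0.0793 for *ALDH1L2* with siPDL1-1 and from -0.0971 to 0.0186 for *SHMT1* with siPDL1-2.

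Replicate numbers did not line up consistently across groups (correlations of deviations from -0.30 to 0.36, over 0.1 in 4 of 15 pairs). A pairing by experiment under another numbering was not tested. With the replicate block, 38 of the 43 comparisons stayed past FDR < 0.01, and *ALDH1L2* was called in the same 3 comparisons. Leaving out siPDL1-2 replicate 2 after IFNγ reduced the genes called for the siPDL1-2 interaction from 1370 to 892. With 2 libraries per group, small changes rest on the spread shared across genes, and *ALDH1L2* is limited by its reads.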
